A study of Homo sapiens with 4 samples.

Results

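Matrix metalloproteases (MMPs) and the tissue inhibitors that block them (TIMPs) were followed across 4 bead arrays, 1 per group, in a study of vesicles from breast cancer cells. The family was taken as every probe whose platform gene symbol was MMP1, MMP2, MMP3, MMP9, MMP10, MMP14, TIMP1, TIMP2, TIMP3 or TIMP4. That gave 11 probes for 10 genes, among 30110 probes for 20043 genes, and only TIMP2 had more than 1 probe. The groups were MDA-MB-231 cells, a breast cancer line given nothing (the MDA-MB-231 array), MCF10A cells, a non-tumorigenic breast epithelial line given nothing (the untreated array), MCF10A cells given exosomes from MDA-MB-231 cells (the exosome array), and MCF10A cells given such exosomes with a Dicer antibody inside them (the Dicer antibody array). Dicer is the enzyme that cuts microRNA precursors, and exosomes are small vesicles that cells release. All cultures grew in medium whose serum had been freed of exosomes. The labels' protocol describes RNA taken from exosomes as well as from cells, while every sample is labelled as cells. The sources used here give no dose or duration of the exosome treatment. Each group was 1 array of 1 RNA sample, so no difference below has a replicate spread, a test or an interval.

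MMPs are zinc enzymes, secreted or anchored in the cell membrane, that cut the proteins of the extracellular matrix. They are made as inactive precursors and are switched on when a propeptide is removed, often by plasmin or by another MMP. TIMPs bind the active site and shut it, and TIMP2 also helps the membrane protease MMP14 to activate MMP2. In breast tissue much of the MMP output comes from stromal fibroblasts, and AP-1 transcription factors and inflammatory cytokines are known inducers of MMP1, MMP3 and MMP10.

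The arrays fell into 2 pairs by how many genes passed a detection p below 0.01, the rank of a probe against its array's negative controls. The high-detection pair was the untreated array (55.4% of genes) and the Dicer antibody array (55.3%). The low-detection pair was the MDA-MB-231 array (7.91%) and the exosome array (7.83%). The median signal over all probes, near background, lay between 51.8 and 62.5 units. Between arrays of different pairs, the group cannot be told apart from this split. On the untreated array markers went against the labelled cell type. The epithelial genes KRT5, KRT14 and CDH1 were detected on no array, where the low-detection pair detected few genes of any kind. In untreated cells 10 of 10 fibroblast markers were detected, with a summed signal of 77033 units. With the Dicer antibody it was 6 of 10, summing to 2610 units, and in the low-detection pair 0 of 10, at 538 (MDA-MB-231) and 530 units (exosome). The epithelial list had 4 of its 13 genes detected in untreated cells and 7 with the Dicer antibody, summing to 1593 and 5941 units, and 0 in the low-detection pair, at 710 and 752 units. The 4 were KRT7, KRT19, DSP and LAMB3. The 7 were KRT7, KRT8, KRT18, EPCAM, DSP, SFN and LAMB3, which alone read 3186 units with the Dicer antibody. Of 11 leukocyte markers 4 were detected in untreated cells, 3 with the antibody and 1 on each low-detection array, PTPRC on none, with sums of 3303 units (untreated) and 1557 units (Dicer antibody). Groups are named as labelled throughout.

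Upstream sequence from RefSeq was matched for 5 of the 10 genes (MMP10, MMP14, TIMP1, TIMP3 and TIMP4). The 250 bases before the start are shown for 3 genes that the results below set apart: MMP10, brightest on the exosome array, MMP14, detected in untreated cells alone, and TIMP1, level within the high-detection pair. They lie at chr11:102780629-102780878 on the minus strand, chr14:22836335-22836584 on the plus strand and chrX:47582186-47582435 on the plus strand of GRCh38.p14, and read 5′ to 3′ along the gene. Capitals mark the AP-1 motif TGANTCA, its variant TGAGTAA, the TATA motif TATAAA and the GC box GGGCGG, each searched on both strands.
MMP10: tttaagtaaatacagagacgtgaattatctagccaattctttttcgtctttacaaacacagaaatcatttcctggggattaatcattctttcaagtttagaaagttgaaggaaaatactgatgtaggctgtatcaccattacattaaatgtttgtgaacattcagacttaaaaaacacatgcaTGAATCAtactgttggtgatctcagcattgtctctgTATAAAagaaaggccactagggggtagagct
MMP14: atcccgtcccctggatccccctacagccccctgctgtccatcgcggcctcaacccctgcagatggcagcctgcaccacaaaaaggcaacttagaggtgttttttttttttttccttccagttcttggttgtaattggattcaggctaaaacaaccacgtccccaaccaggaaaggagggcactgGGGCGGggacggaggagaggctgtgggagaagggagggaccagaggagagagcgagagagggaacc
TIMP1: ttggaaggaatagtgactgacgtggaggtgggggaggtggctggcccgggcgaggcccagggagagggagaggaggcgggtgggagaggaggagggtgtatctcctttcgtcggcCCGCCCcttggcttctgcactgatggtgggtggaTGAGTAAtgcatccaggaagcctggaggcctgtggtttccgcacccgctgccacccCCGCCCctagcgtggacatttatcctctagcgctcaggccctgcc
MMP10 held TGANTCA from base 67 before its start, in the form TGAATCA, and TATAAA from base 31, and no GC box. TIMP1 held TGAGTAA from base 101 and 2 GC boxes, MMP14 held 1 GC box, TIMP3 held 5 and TIMP4 held 1, and none of these 4 genes held TGANTCA or TATAAA. Of 35116 promoter windows of the same length, 6.57% held TGANTCA, 2.21% TGAGTAA, 10.7% TATAAA and 42.6% GGGCGG. A match describes the letters and is not a binding site.

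Most of the family was detected in the high-detection pair and little of it in the other. Of the 10 genes, 8 were detected in untreated cells (80%), 7 with the Dicer antibody (70%) and 2 on each low-detection array (20%), beside the shares over all genes given above. MMP9, the gelatinase of neutrophils, macrophages and many tumours, was detected nowhere, with signals from 42.8 (untreated) to 46.2 units (Dicer antibody). That was so for 37.9% of all genes.

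**Figure D1:**
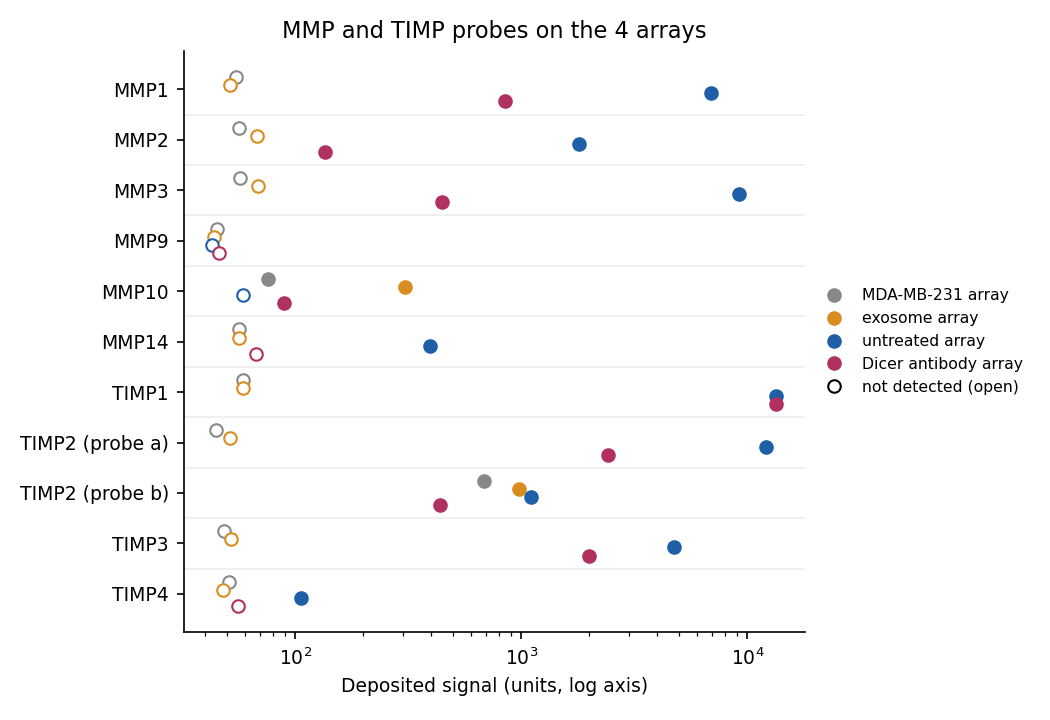
Deposited signal (units, log axis) of the 11 MMP and TIMP probes on the 4 arrays, 1 point per array, filled where detected at p below 0.01 and open where not. TIMP2 probe a is ILMN_1721876 and probe b is ILMN_1749078. In the low-detection pair the points of MMP10 and TIMP2 probe b alone are filled, and MMP10 is brightest on the exosome array.

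Among the secreted proteases, the stromelysin MMP3, which cuts proteoglycans, laminin and fibronectin and activates other MMPs, read 9137 units in untreated cells and 445.6 units with the Dicer antibody. In the low-detection pair it was not detected, at 56.9 (MDA-MB-231) and 68.3 units (exosome). The interstitial collagenase MMP1, which opens fibrillar collagen, read 6904 units in untreated cells and 848.2 units with the Dicer antibody, and stayed undetected in MDA-MB-231 (54.6 units) and with exosomes (51.3 units). MDA-MB-231 cells are known for making MMP1, and its probe was not detected on the array with that label. The gelatinase MMP2, which degrades denatured collagen and basement membrane, read 1804 units in untreated cells and 134.9 units with the Dicer antibody, and was undetected in MDA-MB-231 (56.5 units) and with exosomes (67.7 units). MMP1, MMP2 and MMP3 thus stood in 1 order, untreated above Dicer antibody above the low-detection pair.

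The membrane-type protease MMP14, which activates pro-MMP2 at the cell surface, was detected in untreated cells alone, at 394.8 units. With the Dicer antibody it read 67.0 units at a detection p of 0.0299, and both low-detection arrays read 56.2 units. MMP10, another stromelysin, known from keratinocytes and other epithelia, departed from this order. It read 305.1 units with exosomes, 89.3 units with the Dicer antibody and 75.4 units in MDA-MB-231, detected each time, and 58.8 units in untreated cells, where it was not (detection p 0.0779). Of 1569 genes detected on the exosome array, 31.0% were brightest there.

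Of the inhibitors, TIMP1, the broad secreted inhibitor that many cells induce on stimulation, read 13438 units in untreated cells and 13359 units with the Dicer antibody, and was undetected in MDA-MB-231 (58.6 units) and with exosomes (58.8 units). TIMP3, which binds to the matrix and also blocks ADAM proteases, read 4741 units in untreated cells, 2002 units with the Dicer antibody, and 48.4 (MDA-MB-231) and 52.1 units (exosome), undetected, in the low-detection pair. TIMP4, an inhibitor with a narrow tissue range, was detected in untreated cells alone, at 105.9 units, and read 50.8 (MDA-MB-231), 47.7 (exosome) and 55.8 units (Dicer antibody) elsewhere. TIMP1 and TIMP3 were thus detected in the high-detection pair alone, like MMP1, MMP2 and MMP3.

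The TIMP2 probes, annotated with the same transcript, disagreed in the low-detection pair. Probe ILMN_1721876 read 12055 units in untreated cells and 2415 units with the Dicer antibody, and was undetected in MDA-MB-231 (44.7 units) and with exosomes (51.6 units). Probe ILMN_1749078 was detected on all 4 arrays, at 1102 units in untreated cells, 438.7 units with the Dicer antibody, 686 units in MDA-MB-231 and 978.4 units with exosomes. Whether TIMP2 was detected in the low-detection pair depends on the probe read.

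Setting the Dicer antibody array against the untreated one asks, by the labels, what exosomes carrying the antibody do to MCF10A cells. Of the proteases MMP1, MMP2, MMP3 and MMP14 were lower with the antibody, and TIMP1 was level. Folds are ratios after background correction and quantile normalization. Differences of at least 2-fold were counted. Read by the probe of highest mean normalized value, 5 of 9 genes compared were lower and 0 higher, where 16.7% of all 12252 genes compared were lower and 14.8% higher. Under all 6 scalings of the arrays, 4 of the 9 were lower, where 11.2% of all genes were lower and 8.86% higher. Read by ILMN_1721876, TIMP2 was at least 4.89-fold lower under all 6 scalings, so this count depends on its probe. The median log2 difference was -1.15 over the 9 genes and -0.01 over all. That -1.15 is the value of TIMP2 by ILMN_1749078, chosen by its mean over all 4 arrays. By ILMN_1721876, the brighter probe within this pair, TIMP2 had -2.33, so the family median depends on the TIMP2 probe read. For MMP10, MMP14 and TIMP4, detected on 1 array of the pair, the direction was fixed by that array. Less signal can mean fewer cells of a type or less RNA per cell, which a bulk array cannot tell apart.

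MMP3 was 19.6-fold lower with the Dicer antibody and ranked 106th from the lowest of all genes compared. MMP2 was 13.5-fold lower, or 7.84-fold with quantile normalization and no background correction, and MMP1 was 7.12-fold lower. MMP14 has a bound and was at least 2.996-fold lower, the smallest value over the scalings. MMP10 was at least 1.12-fold higher, short of 2-fold.

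Of the 4 inhibitors 1, TIMP2, was at least 2-fold lower, where 16.7% of all genes compared were lower. That count changed with the scaling. TIMP2 was 5.04-fold lower by ILMN_1721876 and 2.22-fold lower by ILMN_1749078, the latter 1.99-fold with quantile normalization alone. TIMP3 had a log2 difference of -0.97, just inside the threshold, and of -1.34 under median scaling, which is past it. TIMP4 was at least 1.25-fold lower, and under median scaling its bound was -1.08 on the log2 scale, past 2-fold. TIMP1 differed by 0.05 on the log2 scale and by -0.09 under median scaling, so its sign rested on the scaling. Of the fibroblast markers 9 of 10 were at least 2-fold lower, with a median log2 difference of -5.29, and their part in the differences of the MMPs and TIMPs was not tested.

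**Figure D2:**
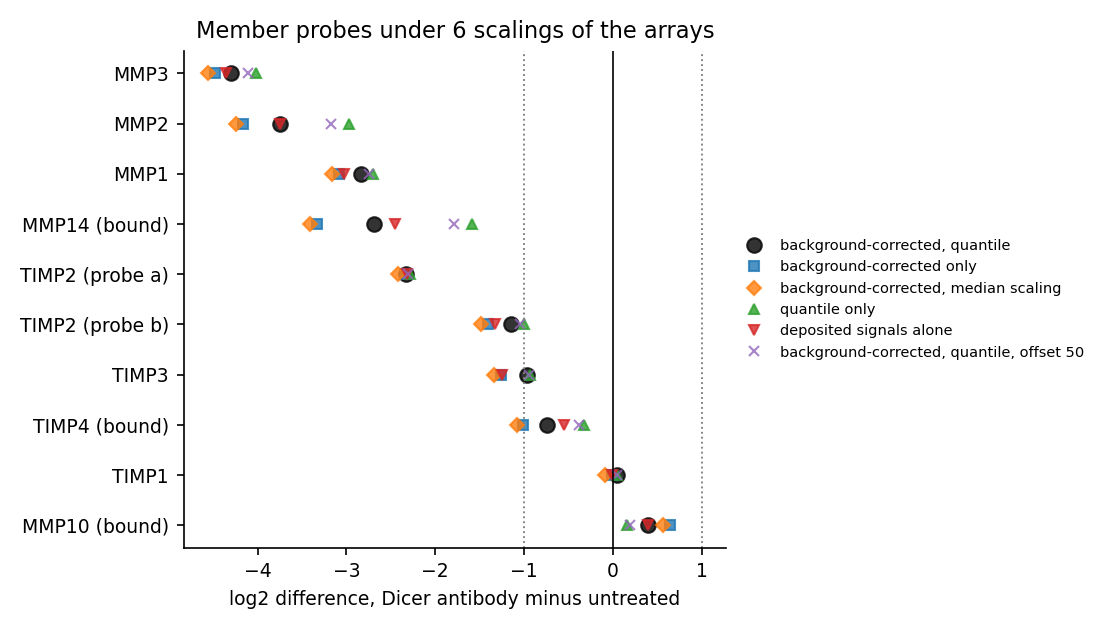
Log2 difference of the Dicer antibody array minus the untreated array for the 10 member probes detected on at least 1 of them, under 6 scalings (symbols); dotted lines mark 2-fold, and bounds are named at the axis. MMP3 lies furthest to the left at -4.29 after background correction and quantile normalization, and TIMP1 lies at 0.05.

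On chromosome 11, 9 MMP genes follow each other with no other protein-coding gene of RefSeq between them, in the order MMP7, MMP20, MMP27, MMP8, MMP10, MMP1, MMP3, MMP12 and MMP13. Of these, 6 were detected on at least 1 array. Beside MMP1 and MMP3, MMP12, the macrophage elastase, read 367.8 units in untreated cells and 56.3 units, undetected, with the Dicer antibody, at least 2.84-fold lower. MMP27 read 190.2 and 46.5 units in the same order, at least 1.77-fold lower. MMP13, a collagenase of cartilage and bone at the end of the row, read 125.2 units with the Dicer antibody and 49.8 units, undetected, in untreated cells, at least 1.37-fold higher. MMP10 too was detected with the antibody and not in untreated cells. The direction of MMP10, MMP12, MMP13 and MMP27 was fixed by the 1 array of the pair that detected them, and MMP1 and MMP3, detected on both, were lower with the antibody.

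**Figure D3:**
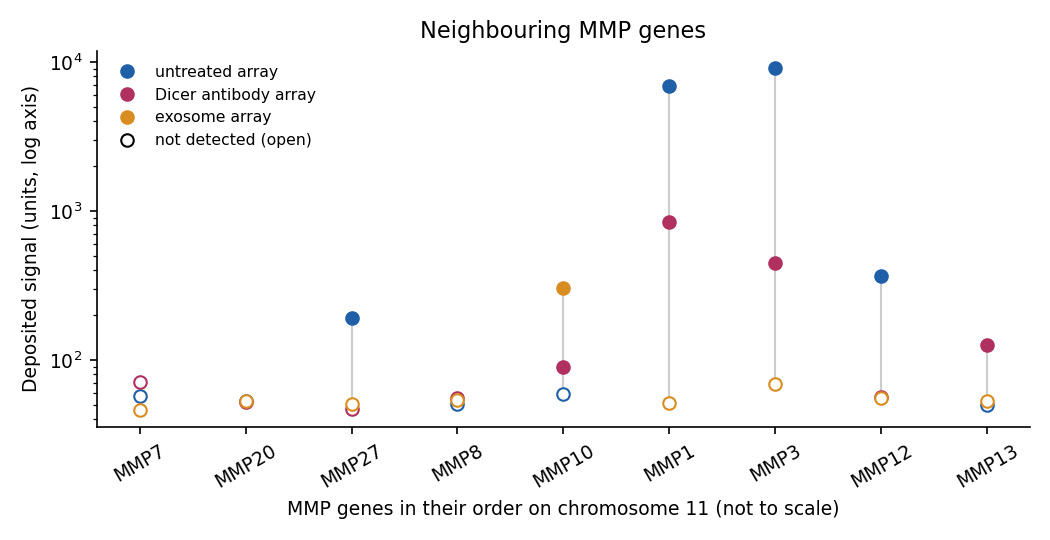
Deposited signal (units, log axis) of 9 neighbouring MMP genes in their order on chromosome 11, not to scale, on the untreated, Dicer antibody and exosome arrays (filled where detected). Each gene is read by its own probe and grey lines join the arrays of 1 gene. MMP1 and MMP3 are brightest on the untreated array, MMP10 on the exosome array and MMP13 on the Dicer antibody array.

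Other genes of the protease system were grouped in lists by role and compared in the same way. Over all genes compared, 16.7% were lower and 14.8% higher, and under all 6 scalings 11.2% and 8.86%. Of the 17 other MMPs, 10 were compared, 2 were lower (MMP12 and MMP27) and none was higher, with a median log2 difference of -0.20. Under all 6 scalings 1 of them, MMP12, was lower. Of 19 ADAM and ADAMTS proteases, relatives that shed surface proteins or cut proteoglycans, 13 were compared. Of these, 5 were lower and 2 higher (median -0.23), and under all 6 scalings 1 was lower and 2 higher. ADAMTS1, which cuts versican and aggrecan, was 7.31-fold lower and the 1 gene lower under all scalings. ADAMTS5 was at least 1.96-fold lower and ADAM33 at least 1.78-fold lower, both short of 2-fold at their smallest, as were the other two counted. ADAMTS9 was 5.96-fold higher, at 359.1 against 73.3 units, or 2.93-fold with quantile normalization alone, and ADAMTS6 was 2.87-fold higher.

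Regulators of MMP activity leaned to lower values. Of 20 compared, 11 were lower and 3 higher (median -1.32), beside 16.7% lower and 14.8% higher over all genes. Under all 6 scalings 10 were lower and 3 higher, beside 11.2% and 8.86%. RECK, a membrane-anchored inhibitor of MMPs, read 4001 units in untreated cells and 69.7 units, undetected, with the Dicer antibody, and was at least 24.4-fold lower. LRP1, the receptor that clears MMP-inhibitor complexes, was at least 11.02-fold lower, and caveolin 1 (CAV1), a membrane scaffold protein, was 11.1-fold lower. Another CAV1 probe, ILMN_2149226, had a smaller log2 difference of -2.32, against -3.47 for the probe used here. In the other direction, the plasminogen activator urokinase (PLAU), whose product plasmin activates MMPs, was 3.997-fold higher at 6334 against 2019 units. Lipocalin 2 (LCN2), which binds MMP9, was at least 2.11-fold higher and the integrin chain ITGB3 at least 2.01-fold higher.

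Known inducers of MMP transcription leaned to higher values. Of 25 compared, 11 were higher and 2 lower (median 0.67), beside 14.8% higher and 16.7% lower over all genes. Under all 6 scalings 10 were higher and 2 lower, beside 8.86% and 11.2%. Interleukin 6 (IL6) read 18620 units with the Dicer antibody and 988.3 units in untreated cells, 33.7-fold higher, or 18.5-fold under median scaling. IL1B was 49.6-fold higher, or 25.7-fold with quantile normalization alone. IL1A, undetected in untreated cells, was at least 19.7-fold higher. The growth factor FGF2 was 3.39-fold lower and the ETS factor ELK3 3.21-fold lower.

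Matrix proteins that MMPs cut were mostly lower. Of 18 compared, 14 were lower and 2 higher (median -1.84), beside 16.7% lower and 14.8% higher over all genes. Under all 6 scalings 10 were lower and 2 higher, beside 11.2% and 8.86%. COL1A2, a chain of type I collagen and also one of the fibroblast markers, was at least 197-fold lower. COL1A1, COL3A1 and DCN were likewise in both lists, and HSPG2 was counted as lower among the regulators too. The small proteoglycan biglycan (BGN) was 45.8-fold lower and type III collagen (COL3A1) 38.7-fold lower, or 19.4-fold and 23.7-fold with quantile normalization alone. The laminin chain LAMB3, an epithelial marker as well, was 27.1-fold higher, or 15.8-fold with quantile normalization alone. Type VII collagen (COL7A1), of anchoring fibrils, was 5.28-fold higher. Called genes of these lists had 16 further probes detected on at least 1 array of the pair. Of these, 7 were detected on both arrays and differed in the direction of the probe used, and the direction of the other 9 was fixed by the array that detected them. Sizes could differ widely. After background correction and quantile normalization, the LAMB3 probe ILMN_1800142, detected with the antibody alone, had a bound of 0.06 on the log2 scale. The LAMB3 probe used here had 4.76 in the same setting. Another LAMB3 probe, ILMN_1680054, and the ADAM19 probe ILMN_1788481 were detected on neither array of the pair.

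**Figure D4:**
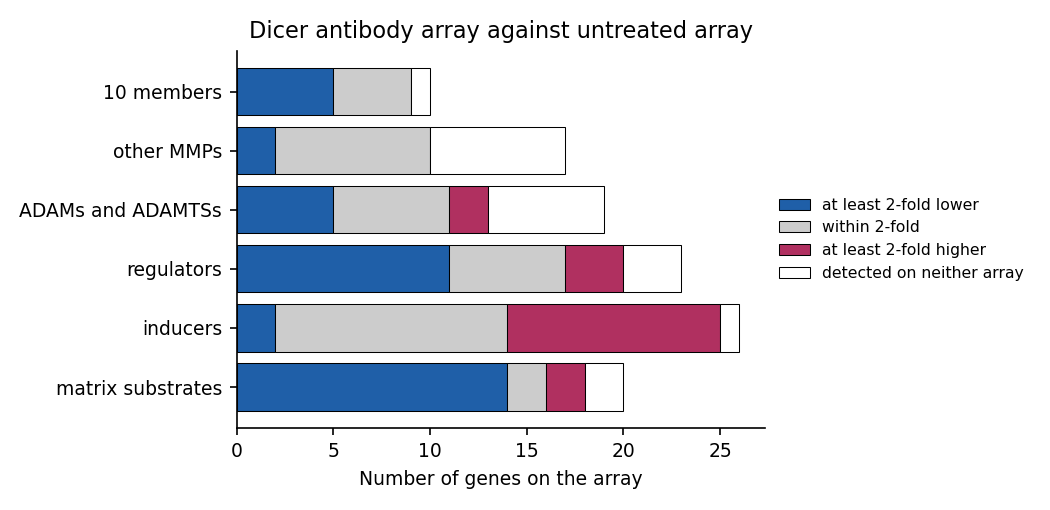
Number of genes at least 2-fold lower, within 2-fold, at least 2-fold higher or detected on neither array, Dicer antibody against untreated, for the 10 MMP and TIMP genes and 5 lists of related genes. The counts are after neqc, where 16.7% of all genes compared were lower and 14.8% higher. In the inducers 11 genes are higher and 2 lower; in the ADAM and ADAMTS list 5 are lower and 2 higher, but 1 lower and 2 higher under all 6 scalings.

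The remaining comparisons, except that within the low-detection pair, cross the split in detection. Quantile normalization placed genes detected on both arrays a median of 3.22 log2 units higher with exosomes than in untreated cells. Single folds below are therefore the smallest over the 6 scalings, written with at least. Comparisons with untreated cells share that array, as the others share theirs.

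Exosome against untreated asks what cancer exosomes without the antibody do to MCF10A cells. TIMP1 was at least 9.16-fold lower with exosomes, TIMP2 at least 7.90-fold by ILMN_1721876, MMP3 at least 5.38-fold, MMP1 at least 3.87-fold and TIMP3 at least 2.62-fold, while MMP10 was at least 4.50-fold higher. Those 5 probes lower and 1 higher passed 2-fold under all 6 scalings. Each was detected on 1 array of the pair, so its direction was fixed by that array, as for 9975 of 11327 genes. Read by the probe of highest mean normalized value, 4 of 9 genes were lower and 1 higher under all scalings. Of all genes 5.15% were lower and 1.25% higher. After neqc, the background correction and quantile normalization used for the folds above, 4 of the 9 were lower and 2 higher. The shares of all genes were 5.37% lower and 12% higher. TIMP2, read by ILMN_1749078, was 1 of those 2. MMP2 read 1804 and 67.7 units in the pair, yet its bound was 1.02-fold, because the lowest detected value on the exosome array was high after quantile normalization. By ILMN_1749078 TIMP2 had no settled direction, from -0.19 to 3.12 on the log2 scale.

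MDA-MB-231 against untreated sets the exosome donor line beside the recipient line. TIMP1 was at least 9.29-fold lower in MDA-MB-231, TIMP2 at least 8.01-fold by ILMN_1721876, MMP3 at least 5.45-fold, MMP1 at least 3.93-fold and TIMP3 at least 2.65-fold. These 5 probes were lower and 0 higher under all scalings. Each of them, and MMP10, was detected on 1 array of the pair, which fixed its direction, as for 10020 of 11358 genes. Read by the probe of highest mean normalized value, 4 of 9 genes were lower and 0 higher under all scalings. Of all genes 5.32% were lower and 0.326% higher. After neqc 4 of the 9 were lower and 2 higher, where 5.52% of genes were lower and 12.3% higher. MMP10 was at least 1.11-fold higher, and TIMP2 by ILMN_1749078 ranged from -0.72 to 3.59 on the log2 scale.

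Exosome against Dicer antibody asks what the antibody inside the exosomes changes. MMP10 was at least 3.42-fold higher without the antibody and TIMP2 at least 2.23-fold higher by ILMN_1749078, while TIMP1 was at least 9.47-fold lower. Of 7 genes compared, these 2 were higher and 1 lower under all scalings, where 1.22% of 11223 genes were higher and 4.6% lower. The counts were the same after neqc, where 12.2% were higher and 4.86% lower. By ILMN_1721876 TIMP2 was at least 1.62-fold lower, so its probes pointed in opposite directions. TIMP1 and ILMN_1721876 were detected on the Dicer antibody array alone of the pair, which fixed their direction. For MMP1, MMP2 and MMP3 the bounds were 0 under quantile normalization, and no fold is given.

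Within the low-detection pair, MMP10 and TIMP2 by ILMN_1749078 could be compared. MMP10 was at least 2.10-fold higher with exosomes than in MDA-MB-231. It was the 1 probe higher, with 0 lower, both under all scalings, where 3.34% of 1948 genes were higher and 0.975% lower, and after neqc, where 4.36% were higher and 3.64% lower. TIMP2 ranged from -0.46 to 0.53 on the log2 scale.

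Dicer antibody against MDA-MB-231 had TIMP1 at least 9.60-fold higher with the antibody. Of 7 genes compared, it was the 1 higher under all scalings, with 0 lower, where 4.82% of 11259 genes were higher and 0.24% lower. TIMP1 and TIMP2 probe ILMN_1721876 were detected with the antibody alone of the pair, which fixed their direction. After neqc 1 was higher and 2 lower, where 5.06% of genes were higher and 12.4% lower. TIMP2 was at least 1.56-fold lower by ILMN_1749078 and at least 1.64-fold higher by ILMN_1721876, and MMP10 had no settled direction.

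Likeness to the family members at both ends was measured as the Euclidean distance between normalized log2 values on the 4 arrays, over 12337 genes outside the lists. The genes nearest to MMP3 were COL6A1, a chain of type VI collagen, at a distance of 0.82, GPNMB at 1.71 and PLPP1 at 1.85. COL6A1 read 11212 units in untreated cells and 552.8 units with the Dicer antibody. The genes nearest to MMP10 were VPS53, OR1K1 and SPI1, at distances of 0.58, 0.59 and 0.59, and each was brightest on the exosome array, at 359.1, 341.3 and 426.9 units. With 4 arrays these distances only describe the normalized values, whose order can differ from that of the signals. MMP10 read 75.4 units in MDA-MB-231 and 89.3 units with the Dicer antibody. VPS53 (95.2 and 89.1 units), OR1K1 (76.5 and 65.7 units) and SPI1 (83.7 and 69.6 units) had the opposite order there.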

How the data were processed

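RNA of 4 samples, 1 per group, was measured on single-colour Illumina bead arrays. Per the file headers, the deposited intensity of each probe is linear and not normalized, and a detection p-value is deposited with it. The authors' value table holds normalized intensity values (method unstated) for 3 arrays, and in the exosome column values within 0.0026 of the detection p-values; it served as an alternative. The submitters' processing notes name limma.

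Probes with 1 platform symbol were used (30110 of 47322), 30071 of them updated by gene identifier. neqc of limma 3.58.1 in R 4.3.3 took the background from detection p-values, added an offset of 16 and quantile-normalized the 4 arrays. Its test used simulated arrays modelled on the untreated array, without the split in detection, so it does not cover comparisons across the pairs. Genes were read by the probe of highest mean value after neqc. Where 1 of 2 arrays detected a gene, its difference is a bound: the undetected value was raised to at least the lowest value detected on that array, and a difference that vanished became 0. Bounds are printed at their smallest over 6 scalings (with or without background correction, quantile normalization or median scaling, and an offset of 50), unless a scaling is named. Signals include background, so folds can exceed their ratios. The number of arrays limits the precision.

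All members are described. Each other list names up to 3 genes per direction with the widest difference past 2-fold, Dicer antibody against untreated, plus defining markers. MMP13, the genes shared between lists and the AP-1 factors were named after their values were seen. Members and lists were chosen with earlier results of these data known. Of 10 endothelial markers 3 were detected in untreated cells and 2 with the antibody.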

Additional observations from a re-analysis of the deposited data

How the results depend on the processing

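For Dicer antibody against untreated, no member changed direction under the alternatives run except TIMP1, which was not called, and 2482 genes differed by 2-fold in the authors' value table against 3865. Under median scaling 1674 of 4614 called genes were higher, against 1815 of 3865. Across the other comparisons the counts of genes moved with every setting named here, given in the order no normalization after background correction, median scaling, deposited signals alone, detection p below 0.05, no detection filter, and mean over the probes of a gene. Exosome against untreated gave 1972 genes and then 8532, 8231, 7614, 3899, 11955 and 6540. MDA-MB-231 against untreated gave 2028 and then 9329, 8779, 8219, 3689, 11894 and 6422. Exosome against Dicer antibody gave 1911 and then 8357, 7898, 7371, 3819, 11804 and 6401, and its member probes went from 3 to 8, 7, 7, 5 and 7 under the first 5 settings. Exosome against MDA-MB-231 gave 156 and then 691, 621, 505, 570, 5624 and 489, with 4 member probes in place of 1 when no filter was set. Dicer antibody against MDA-MB-231 gave 1965 and then 9209, 8471, 8072, 3601, 11801 and 6307, and its member probes went from 3 to 6, 7, 5, 5 and 8. TIMP2 by ILMN_1749078 reversed to -0.19, -0.17 and -2.55 on the log2 scale in exosome against untreated (no normalization, deposited signals, mean over probes), to -0.72, -0.37, -0.68 and -2.42 in MDA-MB-231 against untreated (with median scaling second), to -0.81 in exosome against Dicer antibody and to 0.68 in Dicer antibody against MDA-MB-231 (both mean over probes). MMP10 in Dicer antibody against MDA-MB-231 reversed to 0.47, 0.040 and 0.24 (no normalization, median scaling, deposited signals). The cause was not tested. Reading each gene by the probe of highest deposited signal was an alternative chosen after seeing the data, and it kept each count of genes within 1.5 times. No paired analysis was possible because each group had 1 array. Within the low-detection pair 8 of the 10 genes were detected on neither array, so differences there were not detectable except for MMP10 and TIMP2.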
